A study of Drosophila melanogaster with 8 samples.

Results

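The odorant-binding protein family was followed across the heads of 4 groups of Drosophila melanogaster on 8 single-colour Affymetrix arrays. Members were the probe sets whose only current gene symbol begins with Obp and a number, together with lush, Os-C and a5. This gave 53 of the 18952 probe sets on the array, for 50 of the 11982 genes with a probe set of their own, and no probe set had a symbol beginning with Pbprp. Os-C and a5 are antennal genes grouped with the family by the rule, and a5 encodes a protein of a different fold that resembles phosphatidylethanolamine-binding proteins. Another 4 probe sets carry an Obp symbol beside a second symbol and were left out. With them Obp50b, Obp50c and Obp57d were not analysed here, and neither was Obp83a.

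Odorant-binding proteins are small secreted proteins with a hydrophobic pocket held together by disulphide bridges. Support cells of olfactory and taste sensilla release them into the fluid around the sensory neurons, where they carry or buffer odorants, pheromones and tastants. Many members are also made outside the sense organs, in fat body, glia and the male reproductive tract. Many of the genes lie in tandem clusters, and the number in each name is the position on the polytene chromosome map.

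Control flies were W1118, without driver or transgene. All other flies expressed Eyes absent (EYA), a coactivator of transcription and protein phosphatase that acts in eye development, from a UAS construct under HspGal, a GAL4 driver induced by heat. The construct was EYA-wildtype, EYA-D493N, with a reduced phosphatase activity, or EYA-E728Q, with little if any. All groups held adult males and females that were kept for 1 h at 37 C and then for 3 h at 25 C. Each group has 2 arrays, and RNA came from 200 heads in 4 lots of 50. The heads were shaken off frozen flies by repeated vortexing. Separate cultures for the samples of a group are not named in the labels, and p-values therefore reflect only the spread between these samples, which may be technical. Because controls carried neither element, effects of driver, insertion, genetic background and EYA cannot be told apart in the comparisons with control. Where 3 values against control are given together, they stand in the order wild-type EYA, D493N, E728Q.

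The deposited signal is linear with a median of 100 on each array, and fold changes are log2 values of quantile-normalized signal plus a pseudocount of 17.5. Across the 11261 probe sets tested, replicates correlated with r from 0.981 to 0.991 over probe sets, which are no independent replicates. For Act5C, the 3' signal over the 5' signal, a measure of RNA integrity, was 4.15 to 4.35 on control and wild-type EYA arrays, 4.84 and 5.11 with E728Q, and 5.63 and 6.26 under D493N. The 5' signal of the 18S rRNA control was 5619 on D493N replicate 1 and at most 2196 elsewhere. Signal of the eya probe set was 991 and 918 in control heads, 916 and 915 under wild-type EYA, 1240 and 1554 under D493N, and 1386 and 1140 under E728Q. The sources used here do not say whether it matches the transgenes. The photoreceptor genes Arr1 and Arr2, inaC and trp had signals of 7302 to 44815 on the 8 arrays. The summed signal of the 8 measured photoreceptor genes ran from 115973 to 157098, and that of 22 testis and accessory gland genes from 453 to 1202.

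Tests were made on the upper 60% of probe sets by mean over the 8 arrays, which held 33 of the 53, for 32 genes. The other 20 had means up to 37.4, against a lowest tested mean of 38.1, and single-array values from 0.398 to 61.2. Obp56f, with a mean of 37.4, lay just under the limit, and Obp56c, with a mean of 39.3, just above it. The untested members include Obp22a, Obp51a, Obp56f and Obp56i, which encode seminal fluid proteins, and Obp57e, a taste gene known for its part in food choice. Levels near the limit are hard to place, because no detection call accompanies the values used here. Signals of different probe sets do not compare the amounts of different transcripts, so levels are compared only within a probe set.

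With wild-type EYA, 6 family probe sets rose and 6 fell of the 33 tested, where 22.3% of all 11261 tested probe sets were called. With D493N 5 rose and 7 fell, against 27.9%, and with E728Q 8 rose and 8 fell, against 23.5%. As shares of the 33 these are 36.4%, 36.4% and 48.5%. Calls are those with an adjusted p under 0.05 in limma, where p-values were adjusted by Benjamini-Hochberg over all tested probe sets. The filter favours probe sets that are high in some group, so the same count was made with no filter. Then 12, 8 and 14 of all 53 were called (22.6%, 15.1% and 26.4%), against 11.6%, 14.7% and 12.1% of 18769 probe sets. The D493N calls lost in that fit were Obp19a (adjusted p = 0.0654), Obp56c (0.0558), Obp57a (0.0649) and Obp83g (0.0504). None of the 20 members below the filter was called in it by limma, and 2, 0 and 3 of them had an unadjusted p under 0.05. With no intensity trend in the variance 9 were called in each comparison, against 2133, 2699 and 2220 calls over all tested probe sets. The median log2 fold change of the 33 was 0.12, 0.11 and 0.04, and that of all tested probe sets was -0.03, -0.02 and -0.00. The 3 comparisons share the same control arrays. Without control replicate 1 the family counts fell in all 3, and so did calls over all tested probe sets. Without control replicate 2 calls over all also fell, but the family counts stayed near those of the main fit. The count with wild-type EYA fell without wild-type replicate 1 and rose without either D493N array. That with E728Q fell without either E728Q array. For these transgenic arrays, calls over all tested probe sets moved the same way.

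**Figure D1:**
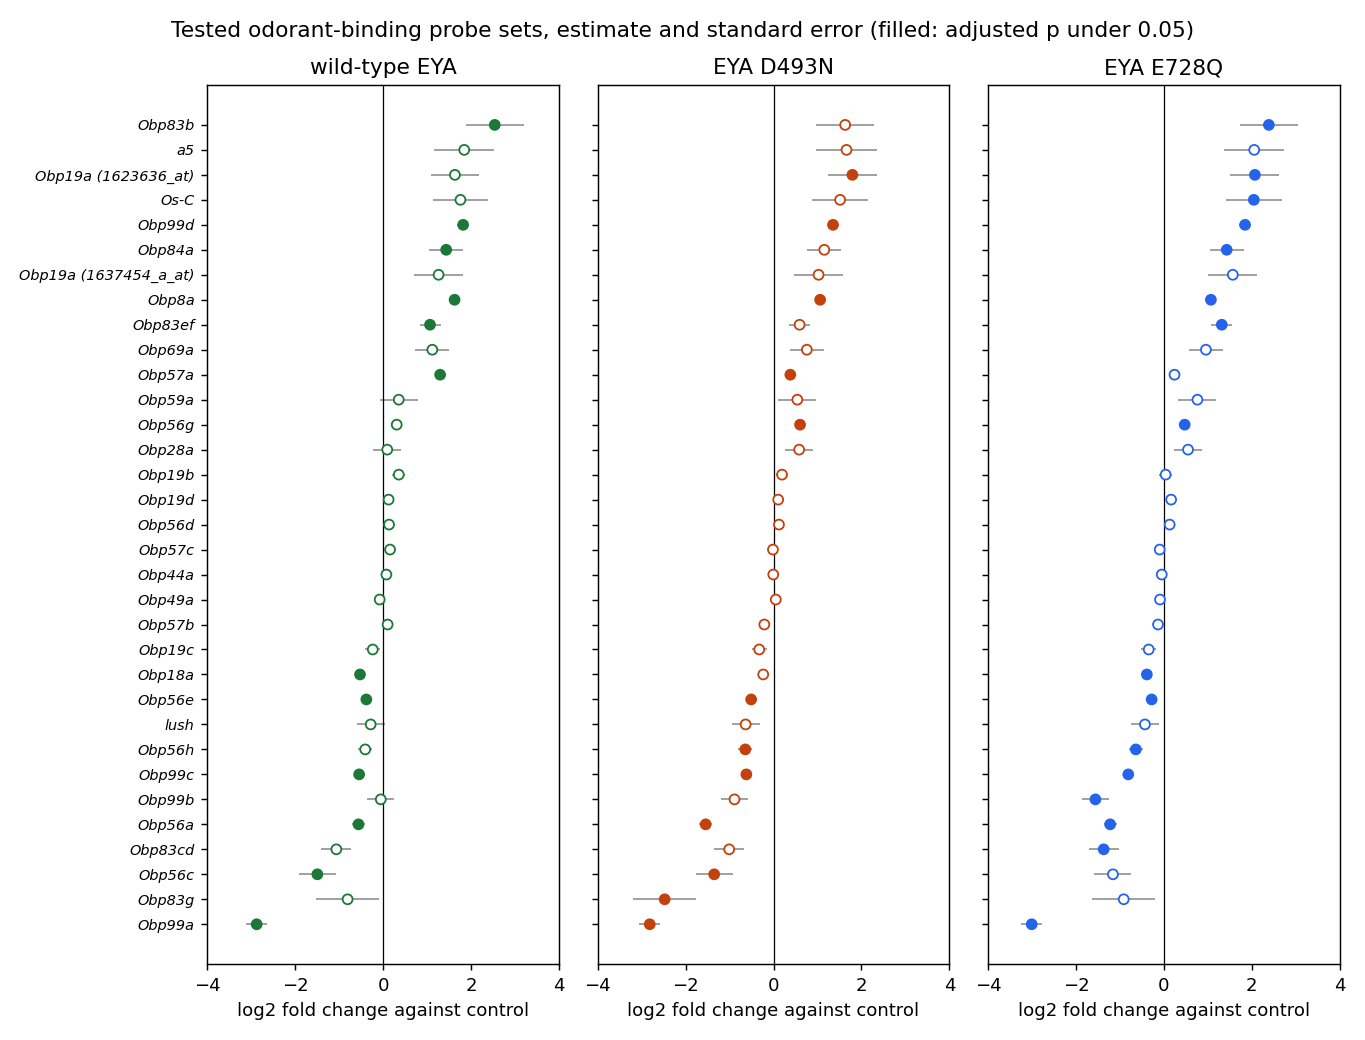
Log2 fold change against control (x axis) of the 33 tested family probe sets (y axis, ordered by the mean of the 3 estimates) with wild-type EYA, EYA D493N and EYA E728Q. Bars are standard errors and filled points have an adjusted p under 0.05. Obp99a lies farthest to the left in every panel, and the widest bars belong to antennal genes such as Obp83b and a5 and to Obp83g.

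The 4 genes of the Obp99 cluster, neighbours on chromosome arm 3R, did not move together. Obp99a and Obp99c fell and Obp99d rose in all 3 comparisons with control, and Obp99b fell with E728Q. Between Obp99a and Obp99c lie 5 other protein-coding genes, and 1 lies in each gap between Obp99c, Obp99d and Obp99b. Obp99a had signals of 1846 and 1946 in control heads, 318 and 182 under wild-type EYA, 262 and 262 under D493N, and 185 and 270 under E728Q. Every transgenic array lay far under both controls. The mean signal was 7.58-fold lower with wild-type EYA, 7.25-fold lower with D493N and 8.35-fold lower with E728Q. On the log2 scale the change was -2.88 (SE 0.24, adjusted p = 5.77e-05), -2.82 (SE 0.24, adjusted p = 5.3e-05) and -3.01 (SE 0.24, adjusted p = 4.57e-05), in limma's test. Its call held in all 18 alternatives of each comparison, with values between -3.26 and -2.51.

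Obp99d went the other way. Its signal was 98.01 and 96.7 in control heads, 395 and 365 under wild-type EYA, 260 and 304 under D493N, and 433 and 367 under E728Q. No transgenic array came near the controls. The log2 fold change was 1.82 (SE 0.13, adjusted p = 3.13e-05), 1.35 (SE 0.13, adjusted p = 0.000121) and 1.85 (SE 0.13, adjusted p = 2.78e-05), and the call held in all 18 alternatives of each comparison. The next gene along, Obp99c, fell by less. Its signals of 16227 and 14385 in control became 10609 and 8972 under wild-type EYA, 10635 and 9240 under D493N, and 8201 and 8974 under E728Q, again without overlap with control. The log2 fold change of Obp99c was -0.55 (adjusted p = 0.0105), -0.62 (adjusted p = 0.00462) and -0.81 (adjusted p = 0.00135), each with SE 0.12. With wild-type EYA the call of Obp99c did not hold once wild-type replicate 2 (adjusted p = 0.0831) or control replicate 1 (adjusted p = 0.0906) was left out.

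Obp99b, known also as tsx and expressed in the fat body of the male head under the control of the sex determination pathway, differed in its pattern. Its signal was 2005 and 3013 in control and 2492 and 2081 with wild-type EYA, values that overlap. With D493N the arrays read 1837 and 1006, and with E728Q 682 and 1014, all under both controls. Obp99b fell with E728Q by 1.56 on the log2 scale (SE 0.31, adjusted p = 0.0065), a call lost without control replicate 2 (adjusted p = 0.0592) or E728Q replicate 1 (adjusted p = 0.0563). It had -0.05 (adjusted p = 0.925) with wild-type EYA and -0.89 (adjusted p = 0.0622) with D493N, or -1.32 (adjusted p = 0.00636) without D493N replicate 1 and -0.45 (adjusted p = 0.247) without D493N replicate 2. The direct difference between wild-type EYA and E728Q, 1.50 (SE 0.31), missed the threshold (adjusted p = 0.081). The female fat body gene fit had signals of 6281 and 5272 in control heads, 4133 and 2968 under wild-type EYA, 1997 and 1321 under D493N, and 1109 and 1073 under E728Q. Of 8 tested fat body genes, 2 rose and 3 fell in each comparison with control, and the summed signal of the 9 measured ran from 26720 on wild-type replicate 2 to 39768 on control replicate 1. Of 4 tested female fat body and yolk genes, 2 fell in each comparison, with sums between 69855 and 91377. These were fit and Yp2, while Yp1 and Yp3 were not called. The 3 measured genes of a male list summed to between 1240 and 1479. Of its 2 tested genes, Cyp4ac3 fell with D493N (-0.52) and msl-2 was not called. The part of these lists in the Obp99 results was not tested.

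**Figure D2:**
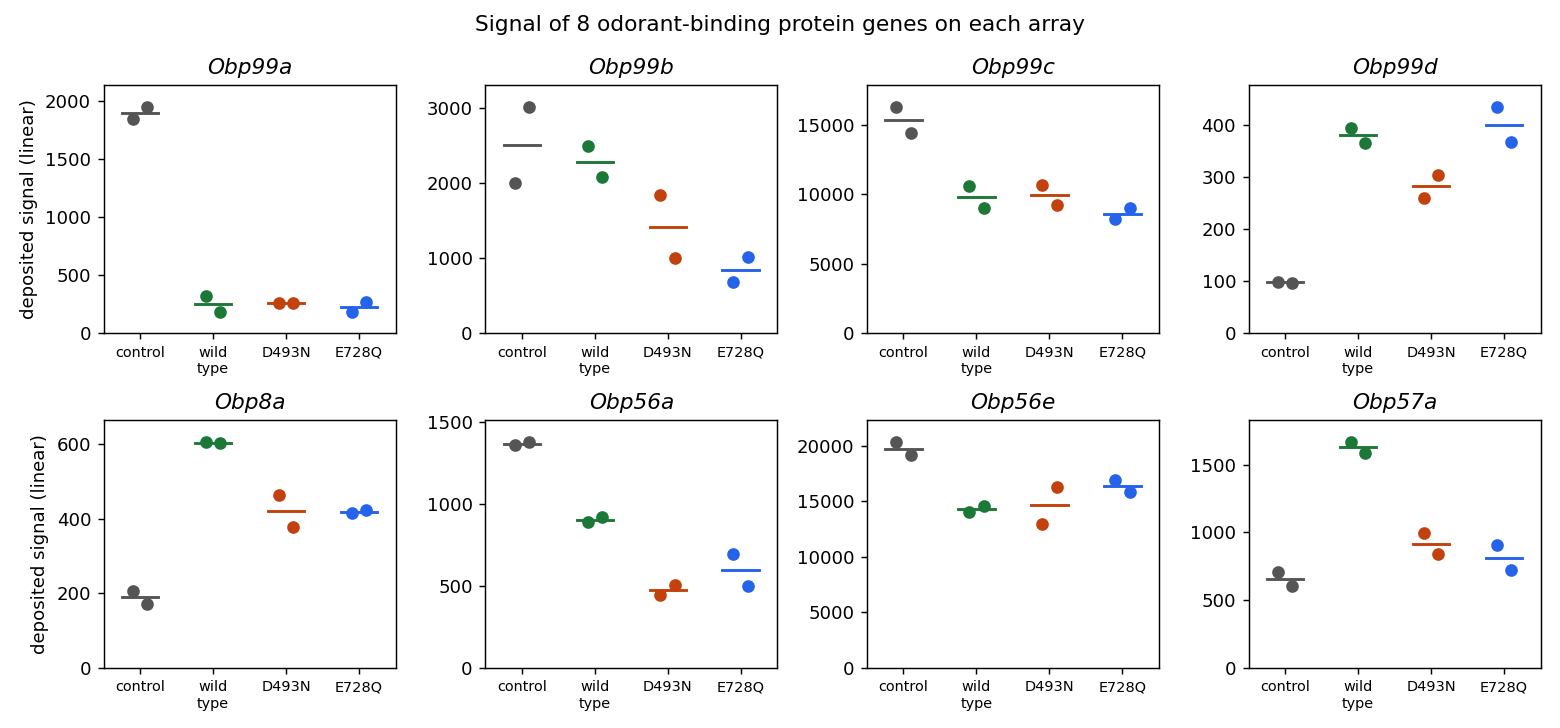
Deposited signal (y axis, linear from 0) of 8 family genes in each group (x axis). Points are the 2 arrays of a group and bars their mean. Obp99a and Obp99d separate control from all transgenic arrays in opposite directions, and Obp57a is highest on the wild-type EYA arrays.

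Obp8a, on the X chromosome, encodes a seminal fluid protein. Its signal was 206 and 171 in control heads, 605 and 603 under wild-type EYA, 464 and 377 under D493N, and 415 and 424 under E728Q. All transgenic arrays exceeded the controls, and the wild-type EYA arrays were the highest. In limma's fit the log2 fold change was 1.62 (SE 0.12, adjusted p = 3.84e-05), 1.06 (SE 0.12, adjusted p = 0.000305) and 1.07 (SE 0.12, adjusted p = 0.000376), and the call held in all 18 alternatives of each comparison. The excess of wild-type EYA over D493N was 0.56 (adjusted p = 0.0824) and over E728Q 0.55 (adjusted p = 0.111), so neither difference was called. The summed signal of 22 testis and accessory gland genes did not follow this order. It was 891 and 453 in control heads, 986 and 592 under wild-type EYA, 553 and 529 under D493N, and 472 and 1202 under E728Q. None of the 7 tested genes of that list was called against control by limma in any of the 3 comparisons, and each list value mixes low signals.

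Obp18a, another X-linked member, fell in the wild-type EYA and E728Q groups. It read 3769 and 3219 in control heads, 2398 and 2204 under wild-type EYA, 3184 and 2828 under D493N, and 2645 and 2655 under E728Q. On the log2 scale the fold change was -0.53 (adjusted p = 0.00243) with wild-type EYA, -0.23 (adjusted p = 0.0754) with D493N and -0.39 (adjusted p = 0.0114) with E728Q. With E728Q the call of Obp18a did not hold without control replicate 1 (adjusted p = 0.098), E728Q replicate 1 (adjusted p = 0.0692) or E728Q replicate 2 (adjusted p = 0.0588).

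The Obp56 cluster on 2R holds 9 genes, from Obp56a to Obp56i. Obp56a, Obp56c, Obp56e and Obp56h fell with D493N and Obp56g rose, while Obp56d did not pass the test in any comparison. Obp56a fell in all 3 comparisons. It read 1362 and 1378 in control heads, 890 and 921 under wild-type EYA, 446 and 503 under D493N, and 698 and 500 under E728Q. The groups followed each other without overlap between control, wild-type EYA and the mutants, whose own values overlap. Against control the log2 fold change was -0.56 (SE 0.15, adjusted p = 0.0249), -1.54 (SE 0.15, adjusted p = 0.000104) and -1.22 (SE 0.15, adjusted p = 0.000466). The D493N and E728Q calls of Obp56a held in all 18 alternatives. That of wild-type EYA did not hold without control replicate 1 (adjusted p = 0.0865) or 2 (0.144), without wild-type replicate 1 (0.143) or 2 (0.0858), and with no intensity trend (0.0619).

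Obp56e, which encodes a seminal fluid protein, fell by a smaller factor. Its signal was 20298 and 19143 in control heads, 14035 and 14583 under wild-type EYA, 12917 and 16297 under D493N, and 16939 and 15783 under E728Q. All transgenic arrays lay under the controls. The log2 fold change was -0.38 (adjusted p = 0.00581), -0.51 (adjusted p = 0.00103) and -0.28 (adjusted p = 0.0253). The E728Q call of Obp56e was lost in 8 of 18 alternatives, among them the deposited values without normalization (adjusted p = 0.161) and leaving out control replicate 1 (0.129), control replicate 2 (0.11), E728Q replicate 1 (0.0702) or E728Q replicate 2 (0.151). That of wild-type EYA was lost without wild-type replicate 1 (adjusted p = 0.0563).

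Obp56h, whose knockdown in males is known to alter mating behaviour, read 2706 and 2594 in control heads, 1977 and 1832 under wild-type EYA, 1417 and 2128 under D493N, and 1815 and 1600 under E728Q. Every transgenic array of Obp56h was under the controls. Its log2 fold change was -0.41 (adjusted p = 0.0969), -0.64 (adjusted p = 0.0142) and -0.64 (adjusted p = 0.0174). The D493N and E728Q calls of Obp56h did not hold without control replicate 1 (adjusted p = 0.0673 and 0.0797) or 2 (0.0833 and 0.0991). The E728Q call was also lost without E728Q replicate 1 (0.0525) or 2 (0.113), and the D493N value moved from -0.36 without D493N replicate 1 to -0.92 without D493N replicate 2.

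Obp56g, which is known from taste sensilla of the labellum and from seminal fluid, was the member of the cluster that rose. Its signal was 8495 and 9044 in control heads, 10868 and 9143 under wild-type EYA, 13800 and 12442 under D493N, and 11412 and 12135 under E728Q. The mutant arrays lay above both controls and all transgenic arrays exceeded the higher control. In limma's fit the log2 fold change was 0.31 (adjusted p = 0.102), 0.60 (adjusted p = 0.00528) and 0.47 (adjusted p = 0.0198). Without control replicate 1 the D493N and E728Q calls of Obp56g were lost (adjusted p = 0.0538 and 0.144), and the E728Q call also without E728Q replicate 1 (0.0541) or 2 (0.127).

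Obp56c had low signal, 92.7 and 76.4 in control heads, 10.1 and 28.3 under wild-type EYA, 18.9 and 27.9 under D493N, and 43.3 and 16.9 under E728Q. Its values with a transgene were near or under the pseudocount, so the size of the change depends on it. On the log2 scale the fold change was -1.50 (adjusted p = 0.0331), -1.35 (adjusted p = 0.042) and -1.16 (adjusted p = 0.0817), and over the alternatives the first ranged from -1.99 to -0.79. The wild-type EYA call of Obp56c did not hold once control replicate 1 (adjusted p = 0.182), control replicate 2 (0.116) or wild-type replicate 1 (0.191) was left out. The D493N call did not hold without control replicate 1 (0.201), control replicate 2 (0.127), D493N replicate 1 (0.128) or D493N replicate 2 (0.0544), and with a pseudocount 4 times smaller (0.0696). It also lies just above the limit for testing. Obp56b, Obp56f and Obp56i were under that limit.

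Obp57a was called between wild-type EYA and both mutants. The genes Obp57c, Obp57b and Obp57a stand next to each other on 2R and near Obp57e, which acts in taste. Obp57a read 707 and 607 in control heads, 1665 and 1588 under wild-type EYA, 993 and 838 under D493N, and 903 and 723 under E728Q. Both wild-type EYA arrays lay above every other array, while the mutant arrays, from 723 to 993, were closer to the controls. Against control the log2 fold change was 1.29 (SE 0.12, adjusted p = 0.000118) with wild-type EYA, a call that held in all 18 alternatives. It was 0.38 (SE 0.12, adjusted p = 0.0456) with D493N and 0.24 (SE 0.12, adjusted p = 0.198) with E728Q. The D493N call of Obp57a was lost in 9 of 18 alternatives, including those without control replicate 1 (adjusted p = 0.104), control replicate 2 (0.218), either wild-type array (0.0794 and 0.0792) or D493N replicate 1 (0.158).

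Tested directly, Obp57a was higher with wild-type EYA than with D493N by 0.91 (SE 0.12, adjusted p = 0.011) and than with E728Q by 1.05 (SE 0.12, adjusted p = 0.00718). These calls were lost without wild-type replicate 1 (adjusted p = 0.141 and 0.115) or 2 (0.137 and 0.105), and with no intensity trend (0.0747 and 0.0633). That against E728Q was also lost without E728Q replicate 2 (0.0683), and that against D493N with only the arrays of the 2 groups (0.0556). Log2 values stayed between 0.80 and 1.20 throughout. Its neighbours were not called. Obp57b read 1481 and 1557 in control and 1752 and 1467 with wild-type EYA, with a log2 fold change of 0.10 (adjusted p = 0.50). Obp57c had 7392 and 7040 in control and 7413 and 7036 with wild-type EYA. These are almost alike, while its normalized signal gave a log2 fold change of 0.16 (adjusted p = 0.0974).

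Few other members differed between the transgenes. Between wild-type EYA and D493N 2 of the 33 were called, where 1.15% of all tested probe sets were called. They were Obp57a and Obp56a, the latter higher with wild-type EYA by 0.98 (SE 0.15, adjusted p = 0.0196). The Obp56a call did not hold without control replicate 1 (adjusted p = 0.0572), control replicate 2 (0.0561), wild-type replicate 1 (0.156) or wild-type replicate 2 (0.219), with only the arrays of the 2 groups (0.0556) and with no trend (0.0912). Between wild-type EYA and E728Q Obp57a alone was called of the 33, where 0.710% of all tested probe sets were called. Between D493N and E728Q limma called 0 of the 33, where 0.169% of all were called, and 3 had an unadjusted p under 0.05. Leaving out D493N replicate 2 raised these counts, and it also raised the calls over all tested probe sets. That fit holds 1 D493N array.

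The Obp83 cluster on 3R holds the double-domain genes Obp83cd and Obp83ef, whose proteins carry a pair of OBP domains, and their neighbour Obp83g. With E728Q, Obp83ef rose and the adjacent Obp83cd fell. Obp83ef read 86.5 and 88.4 in control heads, 271 and 146 under wild-type EYA, 133 and 150 under D493N, and 249 and 241 under E728Q, all above control. Its log2 fold change was 1.07 (adjusted p = 0.0124), 0.59 (adjusted p = 0.101) and 1.32 (adjusted p = 0.00421). The E728Q call of Obp83ef held in its alternatives, and that of wild-type EYA did not hold once control replicate 1 (adjusted p = 0.0709), control replicate 2 (0.0644) or wild-type replicate 1 (0.0661, log2 fold change 0.66) was left out.

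Obp83cd had signals of 226 and 187 in control heads, 109 and 72.1 under wild-type EYA, 93.3 and 93.8 under D493N, and 110 and 42.8 under E728Q, all under control. Against control the log2 fold change was -1.07 (adjusted p = 0.0568), -1.01 (adjusted p = 0.0587) and -1.37 (adjusted p = 0.02). The E728Q call of Obp83cd did not hold when control replicate 1 (adjusted p = 0.122), control replicate 2 (0.0757) or E728Q replicate 2 (0.0929, log2 fold change -0.80) was left out. Obp83g read 531 and 452 in control heads, 248 and 304 under wild-type EYA, 17.6 and 240 under D493N, and 320 and 210 under E728Q. The low value on D493N replicate 1 stands apart from all others. The log2 fold change of Obp83g with D493N was -2.48 (adjusted p = 0.0311), with -1.04 (adjusted p = 0.00948) without D493N replicate 1 and -3.91 when D493N replicate 2 was left out. The call was lost without control replicate 1 (0.139), control replicate 2 (0.112) or either wild-type array (0.0539 and 0.0535). With wild-type EYA and E728Q Obp83g had -0.81 (adjusted p = 0.483) and -0.91 (adjusted p = 0.419), and with D493N replicate 1 out of the shared estimate of spread both were called (adjusted p = 0.0104 and 0.00536).

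The members of antennal olfactory sensilla differed widely between the control replicates, and the rest of the family did not. This group was Obp19a, Obp19d, Obp28a, Obp56d, Obp59a, Obp69a, Obp83b, Obp84a, lush, Os-C and a5, genes known from support cells of antennal sensilla or from the antenna, and 12 of its probe sets were tested. Between the control arrays 8 of the 12 differed over 2-fold on the normalized scale, all higher on replicate 2, against 0 of the other 21 members and 1.21% of all tested probe sets. Between the D493N arrays 4 of 12 did, again higher on replicate 2, against 1 of 21, which was Obp83g, and 2.51% of all. The SD of the log2 replicate difference over the 12 was 0.91 among controls, 0.29 under wild-type EYA, 0.49 under D493N and 0.36 under E728Q. Over the other 21 members it was 0.20, 0.33, 0.71 and 0.40, the value for D493N including Obp83g, and over all tested probe sets 0.28, 0.27, 0.39 and 0.32. The median difference over the 12, replicate 2 minus replicate 1, was 1.21 in control, 0.33 under wild-type EYA, 0.96 under D493N and -0.27 under E728Q. Not all members took part. Of the 12, Obp19d, Obp56d and lush differed by 0.00, 0.07 and -0.06 between the control arrays, and Obp19d and Obp56d by 0.01 and 0.00 between the D493N arrays. Markers of other tissues were mixed on D493N replicate 1. Its summed signal of 5 muscle genes was 20680, against 33558 to 43794 on the other arrays. That of 7 haemocyte genes was 7236, against 8358 to 10074. It was also the lowest array for 6 neuron genes (11221) but the highest for 6 glia genes (34632). For photoreceptor and fat body genes it lay between the other arrays. The part of these tissues in the antennal differences was not tested.

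**Figure D3:**
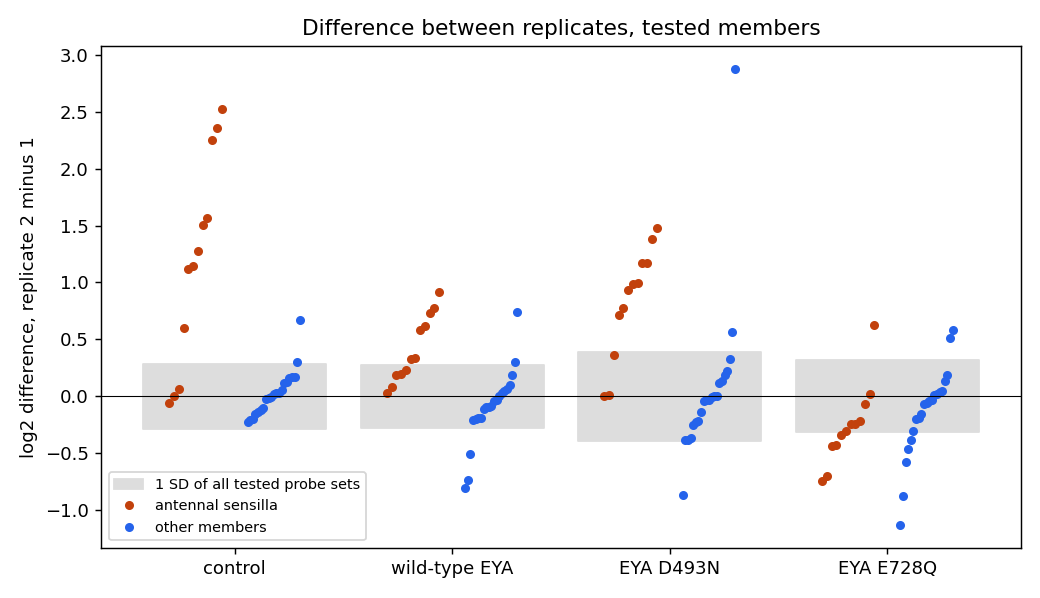
Log2 difference of normalized signal between replicate 2 and replicate 1 (y axis) in each group (x axis), for the 12 antennal probe sets and the 21 other tested members. Grey bands are 1 SD of that difference over all tested probe sets. The antennal points reach far above the band in control and D493N, and the other members mostly stay near it, apart from Obp83g with D493N.

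Control replicate 1 was the lowest of the 8 arrays for 11 of the 12 antennal probe sets on the normalized scale, for 2 of the other 21 members and for 16.1% of all tested probe sets. On the same scale, replicate 2 was the higher for 11, 12 and 11 of the 12 in control, wild-type EYA and D493N, and with E728Q for 2. Deposited signals of Obp19d and Obp56d were instead lower on replicate 2 in control and wild-type EYA. Obp56d was also lower there with E728Q. By deposited signal control replicate 1 was not the lowest array for Obp19d or Obp56d. Fewer cells of a type and less RNA per cell cannot be told apart in such bulk samples, and the labels give no count of antennae kept on the heads. Whether antennal recovery moved these values was not tested.

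The signals show how far the antennal genes varied together. Obp83b, also known as Os-E, is co-expressed with lush in pheromone-sensing trichoid sensilla. It read 126 and 672 in control heads, 1470 and 2167 under wild-type EYA, 678 and 1546 under D493N, and 1972 and 1431 under E728Q. Control replicate 2 and D493N replicate 1 were almost alike, and control replicate 1 was far under both. The log2 fold change was 2.54 (SE 0.66, adjusted p = 0.0238) with wild-type EYA, 1.63 (SE 0.66, adjusted p = 0.102) with D493N and 2.39 (SE 0.66, adjusted p = 0.0296) with E728Q. Without control replicate 1 it was 1.36 (adjusted p = 0.103), 0.45 (adjusted p = 0.567) and 1.21 (adjusted p = 0.136). The wild-type EYA and E728Q calls of Obp83b were also lost without wild-type replicate 1 (0.0741) or 2 (0.144) and without E728Q replicate 1 (0.145) or 2 (0.091), respectively.

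Os-C, an antennal gene, had signals of 132 and 650 in control heads, 870 and 1257 under wild-type EYA, 620 and 1419 under D493N, and 1459 and 1217 under E728Q. The order of the arrays was close to that of Obp83b. Os-C was called with E728Q alone, at 2.05 (SE 0.63, adjusted p = 0.046), and had 1.76 (adjusted p = 0.082) with wild-type EYA and 1.51 (adjusted p = 0.111) with D493N. Without control replicate 1 its E728Q value was 0.92 (adjusted p = 0.233). The call was lost as well without E728Q replicate 1 (0.179) or 2 (0.136) and without either wild-type array (0.071 and 0.0706).

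The gene a5 differed 9.40-fold between the controls, from 21.6 on replicate 1 to 203 on replicate 2. It read 239 and 413 under wild-type EYA, 198 and 400 under D493N, and 424 and 335 under E728Q. D493N replicate 1 therefore overlapped with control. The log2 fold change of a5 was 1.84 (adjusted p = 0.0905), 1.66 (adjusted p = 0.107) and 2.06 (adjusted p = 0.0602), and 0.58, 0.40 and 0.79 without control replicate 1.

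Both probe sets of Obp19a, a gene of the antenna that starts the Obp19 cluster on the X, gave the same order of arrays within the controls and D493N. The brighter one read 65.3 and 223 in control heads, 326 and 539 under wild-type EYA, 288 and 839 under D493N, and 649 and 540 under E728Q. Its log2 fold change was 1.63 (adjusted p = 0.0683), 1.79 (adjusted p = 0.0409) and 2.07 (adjusted p = 0.0261). The other probe set of Obp19a had 1.26, 1.02 and 1.57 and was not called (adjusted p = 0.149, 0.216 and 0.0757). Without control replicate 1 the brighter one had 0.85, 1.01 and 1.29 (adjusted p = 0.391, 0.266 and 0.183). The D493N call of Obp19a was also lost without either wild-type array (0.0579 and 0.0578), D493N replicate 2 (0.159) or either E728Q array (0.0636 and 0.0634), and the E728Q call without E728Q replicate 1 (0.125) or 2 (0.0933).

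Obp84a, known from coeloconic sensilla, read 48.1 and 139 in control heads, 226 and 286 under wild-type EYA, 160 and 278 under D493N, and 280 and 239 under E728Q. All transgenic arrays exceeded both controls. In limma's fit the log2 fold change was 1.43 (adjusted p = 0.0269), 1.16 (adjusted p = 0.0528) and 1.43 (adjusted p = 0.026), and without control replicate 1 it was 0.80, 0.52 and 0.79 (adjusted p = 0.143, 0.303 and 0.14). The calls of Obp84a were also lost without wild-type replicate 1 (0.0817) or 2 (0.154) and without E728Q replicate 1 (0.13) or 2 (0.0884), respectively.

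Other antennal members were not called. Obp69a, known for a role in pheromone-dependent social responses, read 238 and 513 in control, and its transgenic arrays ran from 443 to 897. Its log2 fold change was 1.12 (adjusted p = 0.0718), 0.76 (adjusted p = 0.186) and 0.96 (adjusted p = 0.113). Obp28a, known from basiconic sensilla, read 578 and 838 in control heads, 680 and 821 under wild-type EYA, 856 and 1472 under D493N, and 1385 and 819 under E728Q. The replicates of both mutant groups lay farther apart than their means did from control, and its log2 fold changes were 0.09, 0.58 and 0.55 (adjusted p = 0.875, 0.211 and 0.257). The tested probe set of Obp59a, a gene needed for sensing humidity, had low signal from 11.04 to 72.5 and log2 fold changes of 0.35, 0.54 and 0.76 (adjusted p = 0.623, 0.405 and 0.251).

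The pheromone-binding gene lush, whose protein serves detection of the male pheromone cis-vaccenyl acetate, did not follow Obp83b. It read 288 and 262 in control heads, 207 and 234 under wild-type EYA, 117 and 252 under D493N, and 259 and 153 under E728Q. Control replicate 1 was its highest array, and D493N replicate 1 its lowest. On the log2 scale the fold changes of lush were -0.28 (adjusted p = 0.586), -0.63 (adjusted p = 0.177) and -0.43 (adjusted p = 0.384).

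With control replicate 1 and D493N replicate 1 both left out, a choice made after seeing the data, the fold changes given here were smaller. Most antennal members read lower on the array left out than on the other replicate of its group, so only fold changes are given. Obp83b then had 1.36, 1.04 and 1.21. Obp84a had 0.80, 0.88 and 0.79, and Os-C had 0.63, 0.97 and 0.92. The brighter Obp19a probe set had 0.85, 1.75 and 1.29. The control and D493N groups hold 1 array each in this fit and are assumed to vary like the others.

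**Figure D4:**
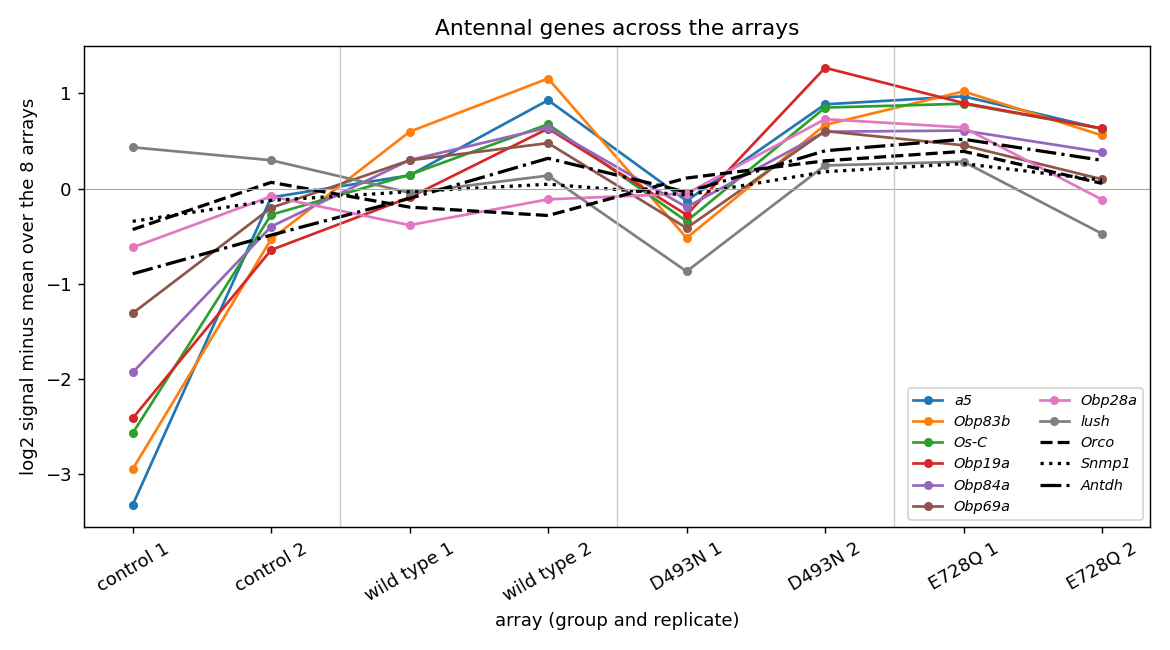
Log2 of the deposited signal minus its mean over the 8 arrays (y axis) for 8 antennal members (coloured lines) and for Orco, Snmp1 and Antdh (black lines) on each array (x axis). Lines join the arrays only to guide the eye. Most members are lowest on control replicate 1, while lush is highest there and lowest on D493N replicate 1, and the black lines vary less.

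Other antennal genes gave a mixed picture. Orco, the co-receptor of the odorant receptors, read 136 and 192 in control heads, 160 and 151 under wild-type EYA, 198 and 224 under D493N, and 240 and 190 under E728Q. Its log2 fold changes were -0.05, 0.34 and 0.35 (adjusted p = 0.895, 0.246 and 0.241), a span far under that of Obp83b. Snmp1, a membrane protein for pheromone sensing, ran from 270 on control replicate 1 to 411 on E728Q replicate 1 and was not called (adjusted p = 0.245, 0.224 and 0.0821). Antdh, an antennal dehydrogenase, was likewise lowest on control replicate 1. It read 490 and 649 in control heads, 848 and 1136 under wild-type EYA, 888 and 1200 under D493N, and 1305 and 1119 under E728Q, and it rose by 0.78, 0.76 and 1.03 on the log2 scale (adjusted p = 0.0302, 0.0273 and 0.0084).

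Of 55 antennal receptor genes 52 had a probe set, 10 passed the filter, and 2 of those fell in each comparison with control. They were the ionotropic receptor genes Ir76a, at -2.40, -1.74 and -1.61, and Ir75a, at -1.25, -2.50 and -1.68. Ir75a read 135 and 95.5 in control and 5.16 to 40.3 on the transgenic arrays. Several of these values lie near or under the pseudocount, so the size of its change depends on it. Ir76a read 597 and 566 in control and 91.2 to 203 on the transgenic arrays, so control replicate 1 was not low for it. Of the tested receptor genes, Ir76a, Ir68a, Or43b, Ir76b and Ir75a read higher on control replicate 1 than on control replicate 2. Orco, Ir25a, Ir8a, Or13a and Ir21a read lower there. The summed signal of the 52 was 2150 and 2156 in control heads, 1771 and 1775 under wild-type EYA, 1978 and 1881 under D493N, and 1930 and 1872 under E728Q. Ir76a set that order. The other 51 summed to 1553 and 1590 in control heads and to between 1666 and 1790 on the transgenic arrays. Control replicate 1 was then the lowest array, close to control replicate 2. Ir76a was left out after its values were seen, while Ir75a stayed in, and most of the 51 were below the filter. Of 9 other antennal genes tested, Antdh was the one called higher with wild-type EYA and D493N, joined by lz (0.59) with E728Q, and Ugt35B1 fell in each (-1.03, -0.88 and -1.37). Of these 9, lz and Ugt35B1 read higher on control replicate 1 than on control replicate 2, and the others lower. Of 9 tested genes of the hearing organ and sensory cilium, Root fell in each comparison (-1.58, -1.09 and -1.23) and Tektin-C fell with E728Q (-4.98). The sum of the 15 measured genes ran from 894 on E728Q replicate 2 to 2752 on control replicate 1. Most of that range was Tektin-C, without which these arrays had 884 and 1057. The other 14 genes had their lowest sums on the wild-type EYA arrays, at 644 and 565. The 8 maxillary palp receptors summed to between 193 and 317 on every array, and 2 of them were tested.

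The members Obp49a, Obp19b and Obp19c were not called. Obp49a, which acts in taste sensilla to suppress sweet responses in the presence of bitter compounds, read 9198 and 9320 in control heads, 8679 and 7478 under wild-type EYA, 8885 and 9963 under D493N, and 8583 and 8263 under E728Q. Its log2 fold changes were -0.08, 0.05 and -0.09 (adjusted p = 0.435, 0.606 and 0.38). Obp19b, known from the labellum, had 0.35, 0.19 and 0.04 (adjusted p = 0.122, 0.376 and 0.876), and its neighbour Obp19c -0.24, -0.33 and -0.34 (adjusted p = 0.387, 0.205 and 0.197). Of 8 tested taste genes outside the family, ppk23, an ion channel subunit of pheromone-sensing taste neurons, was called higher in each comparison, and the receptor gene Gr61a was lower with E728Q (-1.27).

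The probe sets of Obp56d, Obp44a and Obp19d were among the 5 of highest mean signal, with those of Obp56e and Obp56g described above. Obp44a, a lipid-binding protein of glia, read 20170 and 18889 in control heads, 19974 and 18506 under wild-type EYA, 20303 and 22298 under D493N, and 18785 and 19019 under E728Q. Its groups overlapped, with log2 fold changes of 0.07, -0.01 and -0.05 (adjusted p = 0.366, 0.952 and 0.562). These are from normalized signal, whereas the deposited mean was lower with wild-type EYA and higher with D493N than in control. Obp56d read 20095 and 19676 in control heads, 21234 and 19304 under wild-type EYA, 21784 and 25238 under D493N, and 21833 and 21723 under E728Q, with 0.13, 0.12 and 0.13 (adjusted p = 0.0959, 0.104 and 0.0955). Obp19d, also known as Pbprp2, read 16929 and 15974 in control heads, 16829 and 16250 under wild-type EYA, 17142 and 20760 under D493N, and 19109 and 17561 under E728Q, with 0.12, 0.11 and 0.17 (adjusted p = 0.151, 0.192 and 0.0595).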

How the data were processed

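The authors deposited 1 linear intensity value per probe set and array, scaled to a median of 100, and the submitters' processing notes name GCOS, with no version. Its handling of background and probe summary is not given in the sources. Quantile normalization between arrays was followed by log2 of the signal plus 17.5, the lower quartile of all values. After the control probe sets were left out, 18769 of 18952 remained, and the 60% of highest mean, 11261, were tested. All 8 arrays entered 1 limma model (limma 3.58.1, R 4.3.3) with a coefficient per group and an intensity trend, with 4 residual and 4.75 prior degrees of freedom. The 6 comparisons were two-sided. The code was tested on simulated data. The number of arrays limits the precision.

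Symbols came from the array annotation (13647 probe sets with 1 symbol, 402 with several, 4903 with none) and were updated by gene identifier for 13544. The RefSeq table of the assembly Release 6 plus ISO1 MT was used only for names, chromosomes and gene order. Values per array are given for every member called against control, for lush, Obp83b, Os-C and a5, and for the 5 of highest mean. Obp28a, Obp49a, Obp57b, Obp57c, Obp69a and the other uncalled members were described after their values were seen. Of other olfactory genes, called ones and Orco were named. Snmp1 and the uncalled receptor genes were added after their values were seen. The members, lists, tests and alternatives were chosen with earlier results of these data known.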

Additional observations from a re-analysis of the deposited data

How the results depend on the processing

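Across the named members and comparisons, no called value changed sign under any of the 18 alternatives run. The counts of members called moved by over 1.5 times as follows. With only the arrays of the groups compared, the count was 21 instead of 12 for wild-type EYA against control, 0 instead of 2 for wild-type EYA against D493N and 3 instead of 1 for wild-type EYA against E728Q. Calls over all tested probe sets were then 3467, 17 and 230, against 2516, 130 and 80 in the main fit. With no intensity trend the count was 9 instead of 16 for E728Q against control, 0 for wild-type EYA against D493N and 0 for wild-type EYA against E728Q. Calls over all were then 2220, 27 and 23, against 2648, 130 and 80. An alternative chosen after seeing the data left out control replicate 1 and D493N replicate 1 together. The count then rose for wild-type EYA against E728Q, as did calls over all tested probe sets. Counts against control did not move by over 1.5 times. Leaving out 1 array at a time gave 6 to 21 for wild-type EYA, 6 to 18 for D493N and 7 to 22 for E728Q against control. It gave 0 to 6 for wild-type EYA against D493N, 0 to 5 for wild-type EYA against E728Q and 0 to 6 for D493N against E728Q. These fits assume that a group left with 1 array varies as the rest do. With the replicate number as a block the counts were 16, 14 and 18 against control and 2, 1 and 0 between transgenes. Calls over all tested probe sets were then 2304, 2902 and 2432 against control and 86, 46 and 15 between transgenes. No protocol says that the numbers mark a shared day, and replicate differences correlated between groups with r from -0.14 to 0.09 over 11261 probe sets, so the numbers were not taken as pairs. The cause of these moves was not tested. With no detection calls, whether members near the filter limit lay above background is not known.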
